A study of Mus musculus with 5 samples.

Results

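This report describes 10 chemokine genes of fetal lung myeloid cells: Ccl2, Ccl3, Ccl4, Ccl6, Ccl7, Ccl9, Ccl12, Ccl17, Ccl24 and Cxcl2. They were chosen by symbol, as chemokines known to be transcribed by myeloid cells in these libraries, and all 10 were found among the 32285 genes of the count tables. Because the choice rested on their level in myeloid cells, the levels per cell type are given as a description, and tests were run only between genotypes. Single-cell RNA was counted at the 3′ end in 5 libraries, each from the dissociated lungs of 1 mouse embryo at stage E18.5. The embryos were Zswim8+/- (Het, 2 embryos, Het1 and Het2) or Zswim8-/- (KO, 3 embryos, KO1 to KO3), and values are listed in that order of replicate number. Zswim8 encodes the substrate adaptor of a ubiquitin ligase that triggers the decay of certain microRNAs. No wild-type embryo is among these libraries, so the controls carry 1 mutant allele, and neither the allele nor the litters are given in the labels. The kept cells numbered 18869, of which 9642 were immune (1118 to 2364 per library), and the immune cells of a library held 14210682 to 29644046 unique molecular identifiers (UMIs).

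Chemokines are small secreted proteins that bind to receptors on leukocytes and guide their movement. Ccl2, Ccl7 and Ccl12 attract monocytes through the receptor Ccr2. Ccl3 and Ccl4 attract monocytes and lymphocytes, and Ccl3, Ccl6 and Ccl9 act through Ccr1. Ccl24 (eotaxin-2) attracts eosinophils through Ccr3, Cxcl2 attracts neutrophils through Cxcr2, and Ccl17 attracts T cells through Ccr4. Before birth the lung holds macrophages that lie in its interstitium and along its vessels and express the complement genes C1qa, C1qb and C1qc. It also holds monocyte-derived cells that mature into alveolar macrophages around birth.

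The genes lie on 3 chromosomes (GRCm38, GENCODE M21). Ccl2 (chromosome 11, 82035571 to 82037453, plus strand), Ccl7 (82045712 to 82047525, plus strand) and Ccl12 (82101845 to 82103400, plus strand) span 67.83 kb. A second stretch of chromosome 11, 1469.52 kb further on, spans 91.76 kb. It holds Ccl9 (83572919 to 83578636, minus strand), Ccl6 (83587882 to 83593087, minus strand), Ccl3 (83647844 to 83649355, minus strand) and Ccl4 (83662584 to 83664683, plus strand). Cxcl2 (90903871 to 90905938, plus strand) and Ccl24 (135569937 to 135573049, minus strand) lie on chromosome 5, and Ccl17 (94810453 to 94812036, plus strand) on chromosome 8. All are protein-coding. Ccl2 overlaps Gm17268 and Ccl6 overlaps E230016K23Rik on the other strand, and reads of such neighbours may have been counted together, since nothing states how strand was handled.

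Upstream sequence was read for the 6 members with a promoter entry in RefSeq (GRCm38.p6), which were Ccl3, Ccl6, Ccl9, Ccl12, Ccl17 and Cxcl2. The windows below are 30 bases long and are written 5′ to 3′ on the strand of the gene. The first pair is shown because the 2 neighbours Ccl6 and Ccl9 moved together between genotypes. It is the best match between their 250 upstream bases, with 21 of 30 bases identical (in capitals), where the other pairs of members matched at 16 to 19 bases. The window starts 104 bases before the start site of Ccl6 (chr11:83593162-83593191, minus strand) and 38 before that of Ccl9 (chr11:83578645-83578674, minus strand).
Ccl6: TTTttctAGCCCaccaTgACCTTTGCCCTC
Ccl9: TTTggaaAGCCCcaagTcACCTTTGCCCTC
The next windows are shown because Cxcl2 and Ccl9 were the 2 of 6 members with an NF-kB motif (in capitals), which 8.46% of 32851 RefSeq promoters of the same length hold on either strand. The match begins 97 bases before the RefSeq start site of Cxcl2, which lies downstream of the GENCODE start given above (chr5:90903792-90903821, plus strand), with a further match on the other strand that overlaps it. In Ccl9 it begins 35 bases before the start site, on the strand opposite to the gene (chr11:83578652-83578681, minus strand).
Cxcl2: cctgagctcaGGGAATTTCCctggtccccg
Ccl9: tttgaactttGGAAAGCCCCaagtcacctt
The letters TATAAA (either strand) were found in Ccl12 and Ccl9, against 13.6% of promoters, and the Ccl12 match stands 31 bases before its start site (chr11:82101802-82101831, plus strand).
Ccl12: ctctttgtgtctTATAAAagtcagatggaa
These are matches of letters, with no binding measured here.

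Immune cells were clustered without the 10 members, and clusters were named by markers as C1q macrophage-like, alveolar macrophage-like, monocyte-like, neutrophil-like, dendritic-like, and basophil- or mast-like. Of the 20 clusters, 3 did not meet the marker rule and were left unnamed, among them a pair led by cycling genes. These 3 clusters entered the immune sums but none of the main fits of a type. Ccl2, Ccl7, Ccl12, Ccl6, Ccl17 and Ccl24 were themselves among the leading genes of clusters, although they did not enter the clustering. The C1q macrophage-like class held a main cluster (Stab1, Lyve1, Sdc4), a cycling cluster, and a shallow cluster (Crybb1, Pf4) whose cells had 0.191 times the depth of their libraries. Within the alveolar macrophage-like class, 2 clusters were led by Fabp4 and Spp1 (the larger) or by Inhba and Spp1 (the smaller, cycling). They are called the Spp1 clusters, and the others of that class were led by Lpl and Ear2 or by Plet1 and Sgk1. The Zswim8 level, at 36.6 and 38.9 UMIs per 1000000 of a sum (CPM) in Het and 38.4, 39.1 and 41.0 in KO, checks nothing, because a 3′ count can come from a mutant transcript too. KO1 and KO2 were female and the other 3 embryos male by their Y-linked and Xist counts, so sex is partly confounded with genotype. From 0 to 6 kept barcodes were shared by any of the 10 pairs of libraries.

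The chemokines had their highest levels in a few myeloid clusters, and the monocyte attractants Ccl2, Ccl7 and Ccl12 shared theirs. In the main C1q cluster Ccl2 was measured at 764 and 1132 CPM in Het and at 982, 844 and 1089 CPM in KO. The cycling C1q cluster had a mean of 1458 ± 356 (SD, n = 4), which overlapped that range, and the next clusters were far lower, the shallow C1q cluster at 84.1 ± 37.8 and the monocyte-like cluster at 77.0 ± 31.6 CPM (SD, n = 5). Ccl7 stood at 688 ± 56.3 CPM (SD, n = 5) in the main and 849 ± 313 (SD, n = 4) in the cycling C1q cluster, against 45.9 ± 21.7 in the shallow one and a mean of at most 7.83 in the other clusters compared. Ccl12 stood at 1273 ± 372, 1004 ± 67.9 and 530 ± 114 CPM in the main, cycling and shallow C1q clusters, and at a mean of at most 16.5 in the others. These 3 genes were found at high levels in the same clusters, and Ccl12 also in the shallow one.

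Ccl24, the eosinophil attractant, followed the same clusters at 192 ± 45.0 CPM in the main (SD, n = 5), 190 ± 45.5 in the cycling (SD, n = 4) and 150 ± 67.8 in the shallow C1q cluster (SD, n = 5), whose ranges overlapped. The monocyte-like cluster came next at 12.8 ± 7.71 CPM. The C1q clusters held 84.2% of the immune UMIs of Ccl2, 96.9% of those of Ccl7, 96.9% of those of Ccl12 and 92.3% of those of Ccl24 over the 5 libraries. Outside the immune cells, mesenchymal cells had 39.4 to 77.5 CPM of Ccl2, and immune cells held 82.7% of its UMIs over all kept cells.

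**Figure D1:**
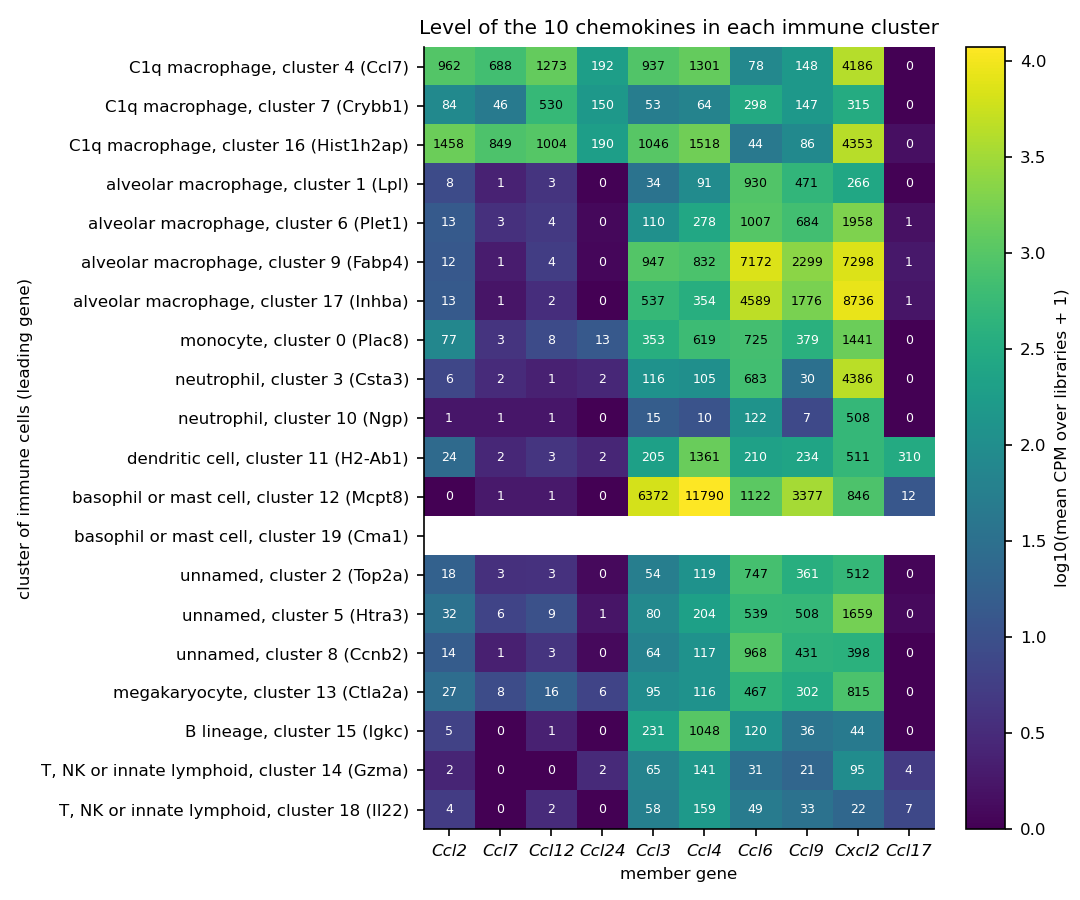
Mean CPM of each chemokine (columns) in each cluster of immune cells (rows, named by class and leading gene). Each number is a mean over the libraries with at least 10 cells of that cluster, and the colour gives log10(mean CPM + 1). Blank rows had too few cells. The C1q clusters stand out for Ccl2, Ccl7, Ccl12 and Ccl24, the clusters led by Fabp4 and Spp1 and by Inhba and Spp1 for Ccl6 (7172 and 4589) and Cxcl2 (7298 and 8736), and the basophil-like cluster for Ccl3 (6372) and Ccl4 (11790).

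Ccl3 and Ccl4, the macrophage inflammatory proteins, were highest in basophil-like cells, a cluster of 128 cells led by Mcpt8, Prss34 and Il13. Ccl3 was measured there at 6278, 7206, 5390 and 6615 CPM in Het1, Het2, KO2 and KO3, apart from every other cluster. It was followed by the cycling C1q (1046 ± 389), the larger Spp1 (947 ± 103, SD, n = 4) and the main C1q cluster (937 ± 81.5, SD, n = 5), which did not differ beyond their spread. Ccl4 was measured at 12030, 15750, 9345 and 10040 CPM in the basophil-like cells of the same libraries. Next came the cycling C1q cluster at 1518 ± 815, dendritic-like cells at 1361 ± 403 and the main C1q cluster at 1301 ± 107 CPM, with overlapping ranges. Basophil- or mast-like cells made up 1.07% to 2.64% of the immune cells of a library and held 16.4% of the immune UMIs of Ccl3 and 18.1% of those of Ccl4.

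The Ccr1 ligands Ccl6 and Ccl9 were high in the larger Spp1 cluster. Ccl6 stood at 9033 and 7875 CPM in Het and at 5050 and 6729 CPM in KO2 and KO3, and KO1 had 1 cell there. The smaller Spp1 cluster had 4085 and 5092 CPM in Het. Clusters outside these were far lower, the next being basophil-like cells at 1122 ± 255 (SD, n = 4) and the Plet1 and Lpl alveolar macrophage-like clusters at 1007 ± 50.3 and 930 ± 75.2 CPM (SD, n = 5). An unnamed cycling cluster, led by Ccnb2, lay between the Plet1 and Lpl clusters at 968 ± 67.3 CPM (SD, n = 5). Ccl9 was highest in basophil-like cells (3377 ± 41.8 CPM, SD, n = 4), then in the larger Spp1 cluster (2299 ± 432, SD, n = 4), in the smaller one (1970.0 and 1582 CPM in Het) and in the Plet1 cluster (684 ± 55.5, SD, n = 5), which lay apart from both Spp1 clusters. In the main C1q cluster Ccl6 had 77.8 ± 31.7 and Ccl9 148 ± 13.6 CPM.

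Cxcl2, the neutrophil attractant, was broad. It stood at 7038 and 10430 CPM in the smaller Spp1 cluster of Het, 7298 ± 1576 CPM in the larger Spp1 cluster (SD, n = 4), 4386 ± 1038 in the larger neutrophil-like cluster (led by Csta3 and Il1r2; SD, n = 5), 4353 ± 762 in the cycling and 4186 ± 470 in the main C1q cluster, neighbours whose ranges overlapped. Ccl17 was measured in dendritic-like cells at 458 and 131 CPM in Het and 218, 204 and 537 CPM in KO, and basophil-like cells came next at 11.8 ± 9.72 CPM (SD, n = 4). Mast-like cells, at most 8 in a library, had 0 to 92.7 CPM. Dendritic-like cells held 93.3% of its immune UMIs, and 10% of these cells held 86.8% of the UMIs in them, with 258 UMIs in the highest cell.

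Shares of cells with a UMI were compared after thinning every cell to 2000 UMIs, with T- and NK-like cells (111 cells, led by Gzma and Cd3g) as a type that should lack most of these genes. In the main C1q cluster 51.9% of 884 cells had Ccl2 (75.3% before thinning), 43.6% had Ccl7 (67.4%), 64.3% had Ccl12 (88.5%) and 26.0% had Ccl24 (62.3%). After thinning no T- or NK-like cell had Ccl2, Ccl7 or Ccl12, which allows a share of up to 2.70% of cells with a UMI at that depth, and 1.80% had Ccl24. Before thinning 0.893% of 112 such cells had Ccl2, none had Ccl7 or Ccl12 and 1.79% had Ccl24. Any of Ccl2, Ccl7 and Ccl12 was found in 83.6% of the thinned main C1q cells and all of them in 23.4%. Basophil-like cells had both Ccl3 and Ccl4 in 89.8% of 128 cells, while T- and NK-like cells had Ccl3 in 5.41% and Ccl4 in 19.8%. In the larger Spp1 cluster 91.0% of 344 cells had both Ccl6 and Ccl9.

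Likeness across cell types was measured by Pearson's r of log2(CPM + 10) over 53 sums of 1 immune type in 1 library, from 12 types, which share libraries and depth, and is a description. Ccl7 and Ccl12 were most like each other (r = 0.988), followed by Ms4a14 (0.984) for Ccl7 and Ms4a7 for both (0.981 and 0.982). Ccl2 was most like Stard8, Ang and Abca9 (0.934 to 0.935), and its r with Ccl7, Ccl12 and Ccl24 was 0.88, 0.893 and 0.899. Ccl24 was most like Cryba4 (0.968), Ms4a7 (0.967) and Smagp (0.957). Ccl3 and Ccl4 were again most like each other (0.872), then Os9 (0.83) and Slc7a8 (0.821) for Ccl3 and Tnfaip8 (0.867) and P2rx4 (0.819) for Ccl4. Ccl6 was nearest to Iqgap1, Emilin2 and Osm (0.855 to 0.866), and its r with its neighbour Ccl9 was 0.655. Adora2b (0.876) and Il6 (0.871) were among the genes most like Ccl9. Ccl17 was nearest to Hepacam2, Cd209a and Itgae (0.915 to 0.925), and Cxcl2 to Gabarap, Mir22hg and Fcgr3 (0.865 to 0.872).

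The first comparison asked whether the chemokines differed between genotypes in the sum of an embryo's whole immune compartment. With edgeR, of 14063 genes tested, 1208 passed an adjusted p of 0.05, which is 8.59%, and 6 of the 10 members passed. Ccl2, Ccl7, Ccl12 and Ccl24 rose in KO libraries (3.61% of all genes tested did) and Ccl6 and Ccl9 fell (4.98% did). Of the genes called, 42.1% were higher in KO, and 63.1% with scaling by library size alone, under which the same 6 members passed in the same directions. All 10 members passed the filter on low counts.

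Ccl24 was measured at 9.12 and 12.6 CPM in Het and at 32.2, 35.5 and 38.0 CPM in KO. Every KO library was higher than both Het libraries, with a log2 fold change of 1.64 (SE 0.13, edgeR adjusted p 0.000852). Ccl7 was measured at 36.2 and 40.2 CPM against 132.6, 90.6 and 102.7 CPM in the same order, a log2 fold change of 1.44 (SE 0.16, edgeR adjusted p 0.00243). Ccl2 stood at 69.3 and 87.1 against 194, 132 and 174 CPM, a log2 fold change of 1.02 (SE 0.16, edgeR adjusted p 0.00905). The groups did not overlap for either gene, and KO1 was the highest library for both. Ccl12 stood at 102.1 and 81.8 against 202, 137 and 149 CPM, again without overlap, a log2 fold change of 0.76 (SE 0.18, edgeR adjusted p 0.0405). The Ccl12 call is the least firm of these: 9 of 15 alternatives ended it, with adjusted p from 0.00188 to 0.276 over all of them, among them leaving out Het1 (0.0849), Het2 (0.267), KO2 (0.0538) or KO3 (0.0503). Ccl2 lost its call without Het1 (adjusted p 0.0729), and with sex as a covariate Ccl2 (0.065) and Ccl12 (0.233) did not pass.

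Ccl6 was measured at 1544 and 1629 CPM in Het and at 623, 687 and 771 CPM in KO. Both Het libraries were higher than every KO library by more than the spread within either group, with a log2 fold change of -1.26 (SE 0.08, edgeR adjusted p 0.000515). Ccl9 stood at 669 and 687 against 358, 424 and 423 CPM, a log2 fold change of -0.82 (SE 0.08, edgeR adjusted p 0.00169), also without overlap. Cxcl2 stood at 2081 and 2103 against 2034, 1423 and 1270.0 CPM, with KO1 close to the Het libraries, and did not pass (log2 fold change -0.47, edgeR adjusted p 0.181). Without KO1 its log2 fold change was -0.71, with an adjusted p of 0.00357. Ccl3 (261 and 291 against 290.1, 289 and 301 CPM) and Ccl4 (430.4 and 442 against 489, 458 and 461 CPM) did not pass, with log2 fold changes of 0.02 and 0.04 (edgeR adjusted p 0.872 and 0.78). Ccl17, at 3.91 to 10.8 CPM in Het and 4.92 to 11.5 CPM in KO libraries, overlapped between the groups.

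**Figure D2:**
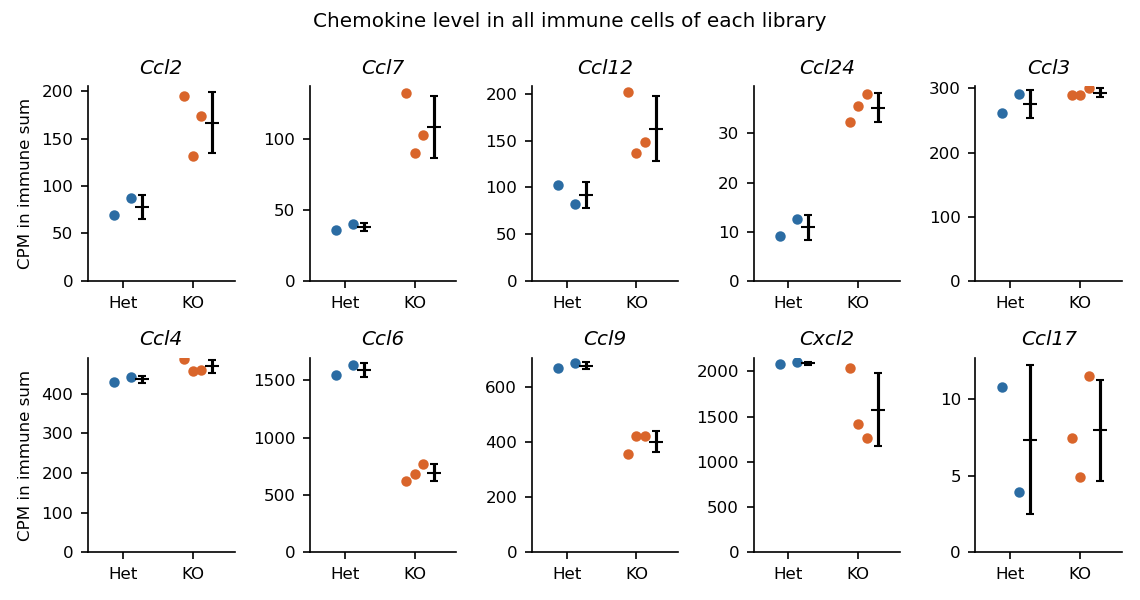
CPM of each chemokine in the summed immune cells of each library (dots, blue for Het and orange for KO), with the mean and SD of each group beside them in black. Ccl2, Ccl7, Ccl12 and Ccl24 are higher in all 3 KO libraries, Ccl6 and Ccl9 are higher in both Het libraries, and Ccl3, Ccl4 and Ccl17 lie at like levels in both groups.

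The makeup of the immune cells differed between the genotypes as well. The C1q macrophage-like class made up 9.73% and 9.41% of the immune cells of Het and 27.4%, 19.5% and 20.4% of those of KO. The Spp1 clusters made up 7.28% and 8.41% in Het and 0.089%, 0.88% and 1.37% in KO, that is 172, 193, 1, 16 and 28 cells. A lower share was not particular to them. The whole alveolar macrophage-like class made up 33.6% and 33.5% in Het and 15.9%, 15.2% and 19.1% in KO. Its Lpl cluster (17.6% and 16.1% against 8.8% to 12.3%) and Plet1 cluster (8.8% and 9.0% against 5.4% to 6.3%) were lower in every KO library. An unnamed cluster led by Htra3 was higher (6.4% and 6.1% against 9.6% to 12.3%). These shares carry no test, because genes that define the clusters differ between the genotypes, so that a shift of cells between clusters and a shift of those genes within cells cannot be told apart. Markers of red cells moved as well: the 8 erythroid markers, none of them at 0 in all libraries, summed to 13649 to 20268 CPM in the Het and 5647 to 12644 CPM in the KO immune sums. The B-lineage markers (121 to 242 against 72.0 to 81.2 CPM), the T, NK or innate lymphoid markers (158 to 186 against 77.0 to 155) and the monocyte markers (3862 to 4030 against 3196 to 3597) were also lower in every KO library, and the megakaryocyte markers, Pf4 among them, higher (445 to 477 against 843 to 1230). None of these markers was at 0 in all libraries. Their part in these results was not tested.

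**Figure D3:**
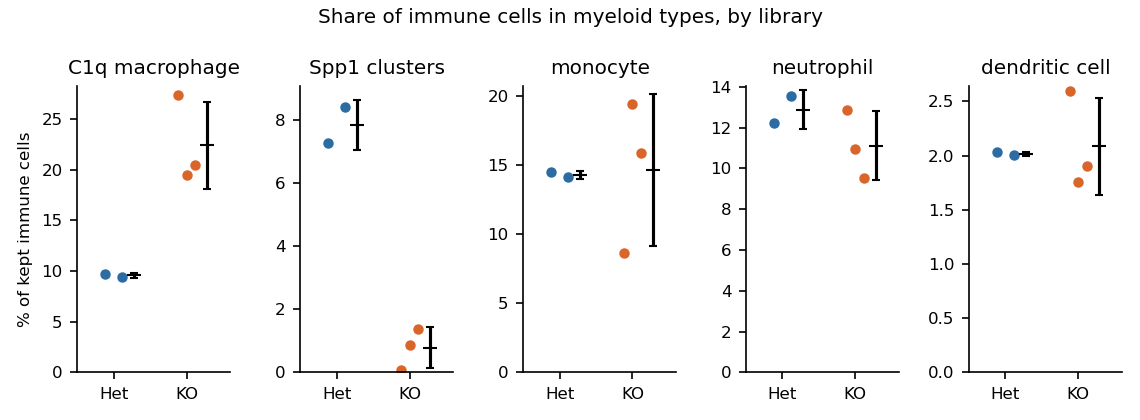
Share of the kept immune cells (percent) in 5 myeloid groups, 1 dot per library, with group mean and SD in black. C1q macrophage-like cells lie at 9.57% ± 0.23 in the Het libraries (SD, n = 2) and at 22.4% ± 4.3 in the KO libraries (SD, n = 3), and the Spp1 clusters at 7.84% ± 0.80 and 0.78% ± 0.65.

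The share of the UMIs of Ccl6, Ccl9 and Cxcl2 that came from the Spp1 clusters was lower in every KO library than in both Het libraries. The Spp1 clusters held 60.2% and 62.4% of the immune UMIs of Ccl6 in Het, and 0.248%, 11.03% and 15.4% in KO. For Ccl9 the shares were 41.7% and 50.9% against 0.197%, 7.03% and 9.67%, and for Cxcl2 47.2% and 55.0% against 0.246%, 6.66% and 11.1%. With the Spp1 clusters left out of the immune sums, 952 of 13946 genes passed (6.83%; 2.85% higher and 3.98% lower in KO), and neither Ccl6 (log2 fold change -0.18, edgeR adjusted p 0.115) nor Ccl9 (-0.16, adjusted p 0.282) was among them. Ccl2, Ccl7 and Ccl24 still rose (0.90, 1.29 and 1.49, edgeR adjusted p 0.021, 0.00475 and 0.00301), and Ccl3 rose as well (0.48, edgeR adjusted p 0.00543). The Ccl12 log2 fold change was 0.61 (adjusted p 0.0727). Fits that leave out clusters rich in a gene and unequal between the genotypes cannot tell a shift of cells from a shift of levels.

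With the C1q clusters left out instead, 685 of 13663 genes passed (5.01%; 1.38% higher and 3.63% lower in KO), and Ccl2 had a log2 fold change of -0.02 (edgeR adjusted p 0.968). Ccl7 (0.99, adjusted p 0.124) and Ccl12 (0.60, adjusted p 0.276) did not pass. Ccl24 kept a log2 fold change of 1.77, as large as with these clusters, on a small rest of its UMIs (the monocyte-like cluster held 5.96% of them in all), and did not pass (adjusted p 0.0615). Ccl6 (-1.11) and Ccl9 (-0.72) still fell (edgeR adjusted p 0.000629 and 0.00339), and Ccl3 fell (-0.57, adjusted p 0.0291). The log2 fold change of Ccl3 thus had opposite signs according to which of the 2 populations was left out, and did not pass with both in. Its immune UMIs lay in Spp1 clusters for 31.6% and 41.9% in Het and for 0%, 4.74% and 7.27% in KO, and in C1q clusters for 18.7% and 14.6% against 59.9%, 43.6% and 48.5%. Leaving out either population takes unequal parts of the Ccl3 UMIs from the 2 groups, so these calls cannot show a change within cells.

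**Figure D4:**
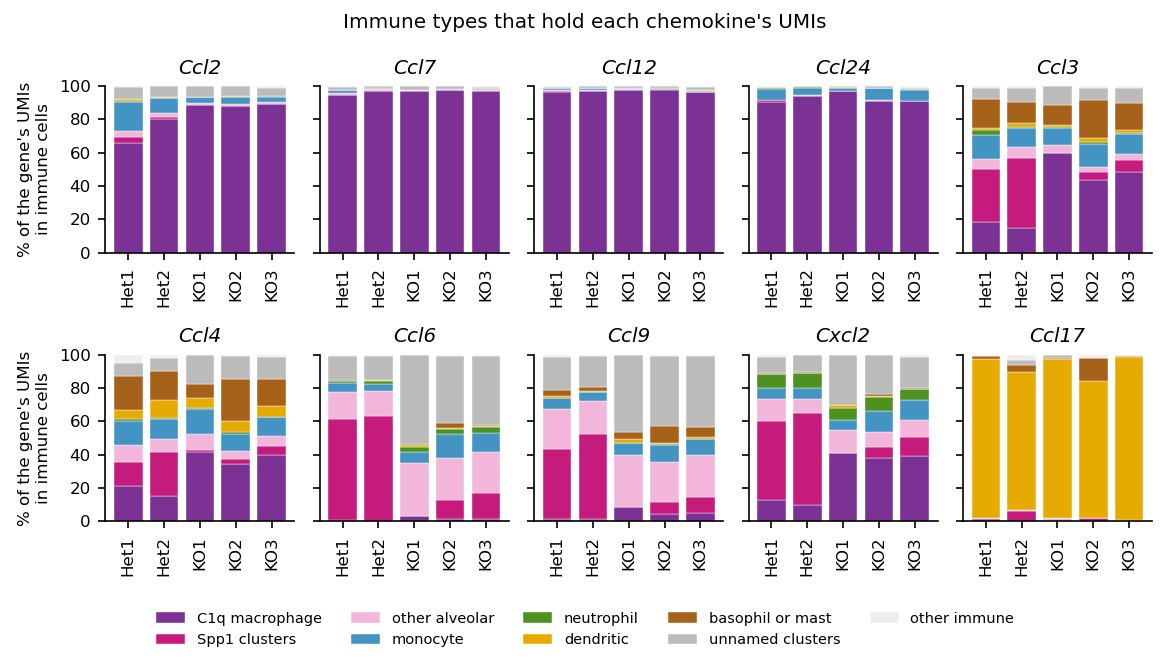
Percent of each chemokine's immune UMIs held by each type, 1 stacked bar per library. The part held by the Spp1 clusters is large for Ccl6, Ccl9, Cxcl2 and Ccl3 in both Het libraries (60.2% and 62.4% for Ccl6) and small in the KO libraries, and the C1q part of Ccl3 is 18.7% and 14.6% in the Het libraries and 43.6% to 59.9% in the KO libraries.

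The next comparison asked whether levels differed within a type. Alveolar macrophage-like cells (794 and 769 cells in Het, and 178, 277 and 390 in KO) had 991 called genes of 10810 (9.17%; 6.25% were lower and 2.91% higher in KO), and 4 of the 8 members that passed the filter on low counts were called, all lower. Of the genes called, 31.8% were higher in KO, and 64.2% with scaling by library size alone. Cxcl2 was measured at 3075 and 3266 CPM against 1443, 1179 and 1257 CPM, a log2 fold change of -1.38 (SE 0.085, edgeR adjusted p 3.77e-06). Ccl6 was measured at 2887 and 3099 against 1027, 1311 and 1431 CPM, a log2 fold change of -1.34 (edgeR adjusted p 2.03e-05). Ccl9 stood at 1070.0 and 1187 against 573, 680.0 and 682 CPM (-0.90, edgeR adjusted p 8.57e-05), and Ccl3 at 239 and 347 against 72.8, 121 and 149.9 CPM (-1.42, edgeR adjusted p 0.00123). The groups did not overlap for any of these 4 genes, which is a description without the share over all genes. Ccl3 lost its call with sex as a covariate (adjusted p 0.0532) and with the stricter cell filter (0.0629). The erythroid markers summed to 12560.0 and 17558 CPM in the Het and 3674 to 12854 CPM in the KO sums of this class and overlapped. Markers of other types did not overlap: the 16 T, NK or innate lymphoid markers, 4 of them at 0 in all libraries, summed to 47.6 to 60.3 CPM in Het and 8.7 to 14.3 in KO, and the 14 neutrophil markers, none at 0 in all, to 638 to 672 against 450 to 576 CPM. The endothelial markers (35.3 to 50.6 against 20.2 to 33.7) and the eosinophil markers (1.1 to 1.8 against 0 to 0.2, with 3 of 6 at 0) were also lower in KO, and the B-lineage markers higher (22.9 to 28.4 against 35.4 to 37.9). The 17 markers of alveolar macrophages themselves summed to 6267 to 6384 against 3919 to 4584 CPM. The part of any of these in the results was not tested.

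The Spp1 clusters were high in Ccl6, Ccl9, Cxcl2 and Ccl3 and held few KO cells, so leaving them out lowers the Het values most. The fit without them therefore cannot tell a shift of cells from a shift of levels. With those 2 clusters left out of the class, 424 of 10649 genes still passed (3.98%; 1.53% higher and 2.45% lower), but none of the 8 members did (edgeR), with Ccl12 alone at an unadjusted p under 0.05. The log2 fold changes of Ccl6, Ccl9 and Cxcl2 were then 0.14, 0.08 and 0.21 (edgeR adjusted p 0.324, 0.612 and 0.693). In the Lpl cluster alone Ccl6 stood at 815 and 892 CPM in Het and at 985, 984 and 974 CPM in KO, and did not pass (log2 fold change 0.17, edgeR adjusted p 0.331), nor did any other member, where 2.15% of 10040 genes did. In the Plet1 cluster alone 1.02% of 8796 genes passed, and Ccl4 was higher in KO libraries (220 and 207 against 369.5, 297 and 297 CPM, log2 fold change 0.57, edgeR adjusted p 0.0305). Within the larger Spp1 cluster Ccl6 was lower in KO2 and KO3 than in Het, as given above, on 13 and 20 cells.

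C1q macrophage-like cells (230 and 216 cells against 306, 355 and 418, of which the main cluster held 109 and 102 against 212, 218 and 251) had 81 called genes of 10188 (0.795%). Of the 9 members that passed the filter, Ccl12 was called and was lower in KO libraries (0.677% of genes were), opposite to its direction in the immune sums. It was measured at 1426 and 1282 CPM in Het and at 1021, 920 and 953 CPM in KO, without overlap, a log2 fold change of -0.53 (SE 0.10, edgeR adjusted p 0.0452). In the main C1q cluster alone, where 1.35% of 9877 genes passed, Ccl12 stood at 1842 and 1460.0 against 1076, 977 and 1011 CPM (-0.72, edgeR adjusted p 0.00398), and after thinning 82.4% and 65.3% of cells had a Ccl12 UMI against 61.4%, 61.3% and 61.0%. Ccl2 and Ccl7, the neighbours of Ccl12 on chromosome 11, had log2 fold changes of -0.01 and 0.16 in the class (edgeR adjusted p 0.993 and 0.603). Ccl24 stood at 119.8 and 192 against 162, 222 and 230.4 CPM and overlapped between the groups (0.37, adjusted p 0.48).

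The erythroid markers summed to 29868 to 33799 CPM in the Het and 11423 to 18085 CPM in the KO cells of this class, and the 10 cycling markers to 1616 to 1982 against 520 to 1376 CPM, and the part of either in the Ccl12 value was not tested. The Ccl12 call in the whole class was lost without Het1 (adjusted p 0.425), Het2 (0.107), KO2 (0.25) or KO3 (0.0819). Ccl6 had a log2 fold change of -1.17 in this class (edgeR adjusted p 0.0614), with 216 CPM in Het1, 124 in Het2 and 64.6 to 97.6 in KO libraries. Without KO1 it passed (-1.36, adjusted p 0.000714). In the shallow C1q cluster, which carries much of it, Het1 had 958 CPM against at most 259 in any other library, and 1 cell held 294 of the cluster's 548 Ccl6 UMIs. The epithelial (959 to 1131 against 400 to 882 CPM), monocyte (1450 to 1550 against 1325 to 1415) and plasmacytoid dendritic markers (740 to 787 against 532 to 673) were also lower in every KO library of this class. The 14 neutrophil markers, 1 of them at 0 in all libraries, summed to 641 CPM in the C1q macrophage-like cells of Het1, 183 in Het2 and 111 to 147 in the KO libraries. The part of these markers in the Ccl12 and Ccl6 values was not tested.

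In monocyte-like cells (343 and 324 cells against 97, 354 and 325) 11 of 9344 genes passed (0.118%) and none of the 9 members tested, with 986 genes at an unadjusted p under 0.05 and 34 called by DESeq2. Ccl24, at 6.38 and 6.20 CPM in Het and 9.62, 18.9 and 23.1 CPM in KO, had a log2 fold change of 1.53 (edgeR adjusted p 0.134). That of Ccl2 was -0.96 (adjusted p 0.241), with Ccl2 at 117 and 87.5 CPM in Het and 90.9, 41.3 and 48.4 in KO. KO1 stood apart in this class. It had 97 such cells, 3219 CPM of the 16 C1q macrophage markers, and 1098 CPM of Ccl4 against 338 to 619. The C1q macrophage markers stood at 1329.5 and 1299.8 CPM in Het and at 1449.9 and 1787 in KO2 and KO3. They were thus higher in every KO library. Members high in the C1q clusters did not move alike here. Ccl24 was higher in every KO library, Ccl2 had a negative log2 fold change, and Ccl7 overlapped. Ccl7 stood at 6.38 and 1.09 CPM in Het and at 1.07, 0.976 and 5.69 CPM in KO. Marker sums also separated the genotypes in this class: the 14 neutrophil markers stood at 6828 to 7036 CPM in Het and 4466 to 4662 in KO, and the 14 monocyte markers at 12849 to 13223 against 8339 to 10941, with none of either at 0 in all libraries. The endothelial markers were lower in KO as well (52.5 and 71.8 CPM in Het, above every KO library), and the dendritic (159 to 163 against 187 to 231) and B-lineage markers (33.2 to 35.0 against 48.1 to 63.1) higher. Without KO1, 440 of 9133 genes passed (4.82%; 0.964% higher and 3.85% lower) and 5 members with them: Ccl24 was higher (1.68, edgeR adjusted p 3.92e-05), and Ccl2 (-1.25, 4.75e-08), Ccl4 (-0.64, 4.43e-05), Ccl9 (-0.40, 0.00338) and Ccl3 (-0.34, 0.0157) were lower. The part of the marker sums in these values was not tested.

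Neutrophil-like cells (289 and 311 cells against 144, 199 and 195) had 3 called genes of 5634 (0.0532%) and none of the 5 members tested, with 546 genes at an unadjusted p under 0.05 and 19 called by DESeq2. In the larger neutrophil-like cluster Cxcl2 stood at 5628 and 5115 CPM in Het and at 4450.0, 3648 and 3088 CPM in KO. In the class its log2 fold change was -0.50 (unadjusted p 0.0132, edgeR adjusted p 0.422), and without KO1 it was -0.68 (adjusted p 0.0103). The 10 epithelial markers summed to 5014 CPM in the neutrophil-like cells of KO1 and to 602 to 899 CPM in the other libraries. The endothelial (84.7 to 109 against 45.5 to 78.8 CPM), eosinophil (6.0 to 7.4 against 0 to 3.2) and megakaryocyte markers (at least 24.3 against 14.6 to 22.2) were lower and the T, NK or innate lymphoid markers higher (49.4 to 64.1 against 80.2 to 143) in every KO library of this class, and the part of any of these was not tested. Dendritic-like and basophil- or mast-like cells numbered under 50 in every library, so no genotype comparison was made of Ccl17 in dendritic-like or of Ccl3 and Ccl4 in basophil-like cells.

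**Figure D5:**
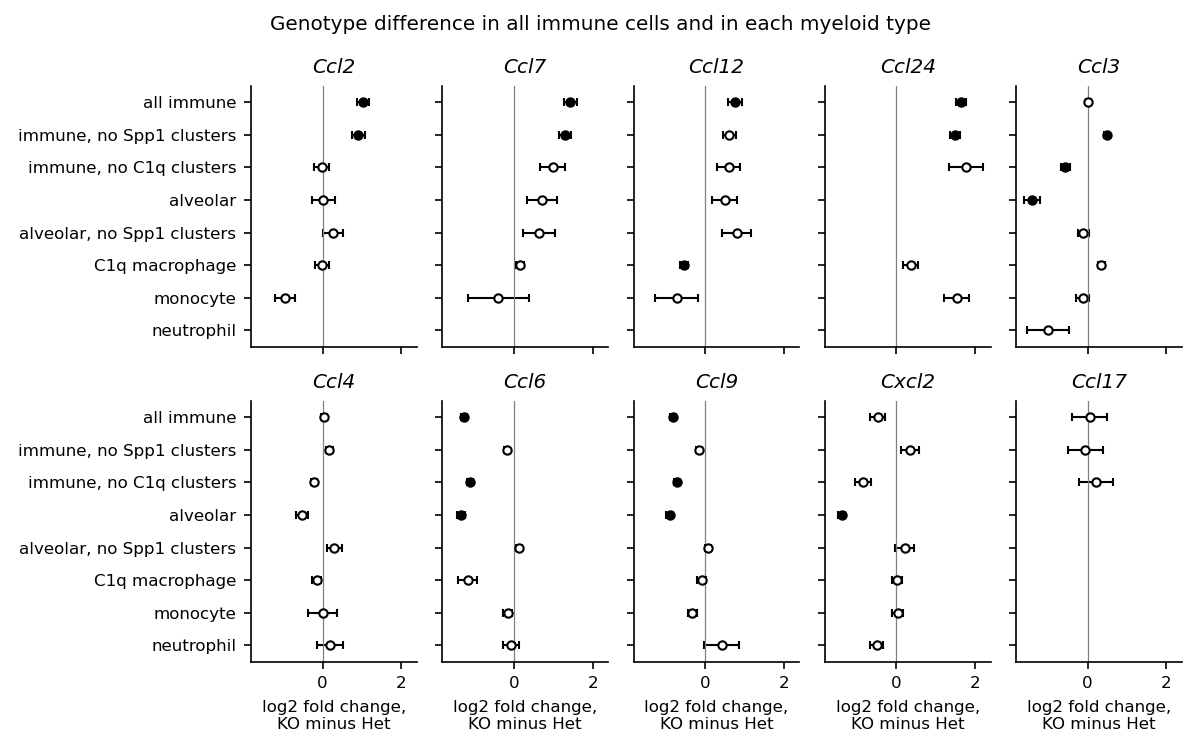
Log2 fold change of each chemokine (KO minus Het, with its SE) in all immune cells, without the Spp1 or C1q clusters, and in each type. Filled points passed an edgeR adjusted p of 0.05, and a missing point means that the gene did not pass the filter on low counts. The falls of Ccl6 (-1.26) and Ccl9 (-0.82) are at -0.18 and -0.16 without the Spp1 clusters, and Ccl12 is positive in all immune cells (0.76) and negative in C1q macrophage-like cells (-0.53).

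Whether a chemokine changed differently in 2 types was tested for the 6 pairs of the 4 types fitted, with the library as a block. Between C1q and alveolar macrophage-like cells 416 of 11270 genes differed (3.69%), and 3 of 9 members. The log2 fold change in C1q macrophage-like cells exceeded that in alveolar macrophage-like cells by 1.41 for Cxcl2 (SE 0.18, edgeR adjusted p 1.75e-05), by 1.82 for Ccl3 (SE 0.40, adjusted p 0.00938) and by 0.84 for Ccl9 (SE 0.22, adjusted p 0.0284). Between alveolar macrophage-like and monocyte-like cells 118 genes differed (1.05%), and the change in alveolar macrophage-like cells differed by -1.41 for Cxcl2 (SE 0.18, adjusted p 2.99e-05) and by -1.19 for Ccl6 (SE 0.26, adjusted p 0.0202). The alveolar macrophage-like sums hold the Spp1 clusters, so these differences include the change in their number. With scaling by library size alone the share of calls above 0 went from 61.1% to 42.9% in the first pair and from 23.7% to 34.3% in the second. Both Cxcl2 differences passed whichever library was left out. That of Ccl3 did not pass without Het2 (adjusted p 0.169), that of Ccl9 without Het1 (0.161), Het2 (0.442) or KO2 (0.0923), and that of Ccl6 without Het1 (0.115), Het2 (0.26), KO2 (0.123) or KO3 (0.0506). No member was called in the other 4 pairs, in which 0.00887% (neutrophil-like minus monocyte-like) to 0.373% (neutrophil-like minus C1q macrophage-like) of genes were, with 0.222% for C1q macrophage-like minus monocyte-like and 0.257% for neutrophil-like minus alveolar macrophage-like cells.

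The receptors of these ligands had their highest levels in different types, and Ccr2 and Cxcr2 are among the markers that named the monocyte-like and neutrophil-like classes. Ccr2, the receptor of Ccl2, Ccl7 and Ccl12, was highest in monocyte-like cells (675 ± 126 CPM, SD, n = 5) and then in alveolar macrophage-like cells (439 ± 58.4). Ccr1 and Cxcr2 were highest in neutrophil-like cells, at 557 ± 91.0 and 597 ± 31.3 CPM. Ccr3 was highest in basophil- or mast-like cells (62.9 ± 17.9 CPM), with at most 2.98 CPM in any library of the C1q macrophage-like class. Ccr4 was at most 13.7 CPM in any library of T-, NK- or innate lymphoid-like cells and lower elsewhere. Of 16 receptor genes tested in the immune sums 3 passed, 2 higher and 1 lower in KO, where 8.59% of all genes passed. Among these, Cx3cr1 rose (log2 fold change 0.86) and Ccr1 fell (-0.27), with edgeR adjusted p of 0.013 and 0.038. The median log2 fold change over the 16 tested receptor genes was -0.09, against 0.01 over all genes tested.

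Among 17 other chemokine ligands tested in the immune sums, Pf4 rose and Cxcl3, Cxcl14 and Cxcl1 fell, which is 4 genes where 8.59% of all did, 1 without Het1 and 0 without Het2 (edgeR). Pf4, a chemokine of platelets that C1q macrophage-like cells also held (5255 to 6080 CPM), went from a mean of 427 to 962 CPM (log2 fold change 1.11, edgeR adjusted p 0.00804), and without the C1q clusters its log2 fold change was -0.27. Cxcl3 and Cxcl1, which like Cxcl2 bind Cxcr2, had log2 fold changes of -1.03 and -0.55 (edgeR adjusted p 0.00596 and 0.0306), and of 0.22 and 0.94 without the Spp1 clusters. Cxcl14 fell by 1.05 (edgeR adjusted p 0.0269). In alveolar macrophage-like cells 3 of 12 tested ligands were lower, Cxcl1 (-1.93) and Cxcl10 (-0.77) by the lowest p, against 9.17% of all genes called. Without the Spp1 clusters 0 passed there, and in the other 3 types none passed.

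Genes induced at once by stimulation, many of them NF-kB targets, are often transcribed together with Ccl3, Ccl4 and Cxcl2. Of 28 such genes tested in the immune sums 9 passed, where 8.59% of all genes did. Icam1 (0.58), Atf3 (0.52), Jun (0.70), Jund (0.46) and Nfkbid (0.28) were among 6 that rose, and Il1a (-1.34), Btg2 (-0.34) and Dusp1 (-0.28) fell, with edgeR adjusted p from 0.00187 to 0.038. Without the Spp1 clusters the log2 fold change of Il1a was 0.53 (edgeR adjusted p 0.338), and without the C1q clusters that of Nfkbid was -0.03 and those of Atf3, Jun and Jund (0.14, 0.15 and 0.28) no longer passed. Dusp1 passed in neither case. The count of 9 was 2 without Het1 and 3 without Het2. The median of the list was -0.02. In alveolar macrophage-like cells 15 of 28 passed, all lower, where 9.17% of all genes passed and 6.25% were lower, led by Nfkbia (mean 882 to 462 CPM, -1.02, edgeR adjusted p 1.2e-05) and Il1a (325 to 82.3 CPM, -2.03), and the median of the list was -0.31 against 0.01 over all genes. With the Spp1 clusters left out of the class, which held 172 and 193 cells in Het and 1, 16 and 28 in KO, 2 genes of this list passed. Without Het1 or Het2 there were 8. In C1q macrophage-like and monocyte-like cells none of 28 passed, and in neutrophil-like cells 1 of 26 did (Btg2, -0.85). The lungs of all 5 embryos were minced and digested warm with collagenase before capture, and the part of this step in these levels was not tested.

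IL-4 and IL-13 act through STAT6 and are known to induce Ccl17 and Ccl24 in macrophages. Of 18 genes of that pathway tested in the immune sums, Mrc1 (0.51), Clec10a (0.62) and Mgl2 (0.70) rose and Tgm2 (-0.85) and Retnla (-1.31) fell (edgeR adjusted p 0.0141 to 0.0316), 5 genes in all, which was 0 without Het1 or Het2 and 2 without KO2. Mrc1 and Mgl2 are also among the markers that named the C1q macrophage-like and dendritic-like classes, and without the C1q clusters the log2 fold changes of Mrc1, Clec10a and Mgl2 were -0.61, -0.03 and -0.15. In alveolar macrophage-like cells 5 of 13 passed, all lower, with Chil3, also an alveolar macrophage marker, at a mean of 13.2 CPM in Het and 0.32 CPM in KO libraries and Tgm2 at 44.8 and 22.8 CPM. In the C1q macrophage-like cells, which held most Ccl24, none of 13 passed.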

How the data were processed

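RNA of single cells from the lungs of 5 embryos was captured with a droplet kit that counts 3′ ends, per the labels' protocols. The deposited tables hold counts of unique molecular identifiers (UMIs) for every gene in every barcode, which the authors obtained from Cell Ranger 4.0.0 on mm10, per the submitters' processing notes; how barcodes were filtered and whether strand was used are not given in the sources used here. The 5 libraries held 56608582 to 93708304 UMIs.

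Cells needed 500 or more genes and no more than 15% of their UMIs from mitochondrial genes, and doublets were removed per library at 0.8% per 1000 barcodes (622 of 19491), by likeness to made-up pairs of cells. Cells were clustered with scanpy 1.11.5 and leidenalg 0.10.2 (2000 variable genes, 30 components, 15 neighbours, resolution 1), leaving the 10 members, Y-linked genes, Xist, Tsix, mitochondrial and haemoglobin genes and Zswim8 out. The rules that turn markers into lineages (at least 4 markers, each in at least 20% of cells) and classes (at least 3 markers) were set after the clusters were seen. UMI sums per library and type were tested with edgeR 4.0.16 (quasi-likelihood test, TMM, filterByExpr, R 4.3.3), with Benjamini-Hochberg adjustment over all genes tested and a threshold of 0.05, and with DESeq2 1.42.0 as an alternative. A type was fitted where every library had at least 50 cells, and a level was averaged over libraries with at least 10 cells. CPM is UMIs per 1000000 UMIs of the same sum, and error is the SD over libraries or the SE of the fit. The share of detected cells was taken after thinning to 2000 UMIs, and its limits cover counting error only.

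The members, the lists of related genes and the rule for names were chosen with earlier results of these data known, so that the direction of Ccl24 and of the macrophage types is no independent support. All 10 members were named, and of each list at most 5 called genes per direction in the immune sums and 2 in a type. Some genes that this rule or the likeness measure picked are not reported here. Of the alternatives, leaving out the Spp1 or the C1q clusters and fitting single clusters were chosen after seeing the data. Tested on made-up counts for the same genes, the fits recovered 74.7% of genes given a log2 change of 1 in the immune sums, 83.6% in alveolar macrophage-like, 61.5% in C1q macrophage-like, 62.3% in monocyte-like and 48.7% in neutrophil-like cells. For differences between types, only alveolar macrophage-like minus monocyte-like cells was tried, with changes put in well-counted genes at a fixed dispersion. There 23.5% were recovered. False calls numbered 3 to 19 in these tests. Each embryo is 1 library, and the labels do not name litters, so p-values measure the spread between these embryos.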

Additional observations from a re-analysis of the deposited data

Results flagged for a closer look

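The genotype effect on 4 members differed between types by a test of the difference itself, in 2 of the 6 pairs of types. Of all 11270 genes tested, 1.05% differed between alveolar macrophage-like and monocyte-like cells and 3.69% between C1q and alveolar macrophage-like cells. Only the Cxcl2 differences passed whichever library was left out. Ccl6 (-1.19) and Cxcl2 (-1.41) changed more towards lower levels in alveolar macrophage-like than in monocyte-like cells, with edgeR adjusted p of 0.0202 and 2.99e-05. Ccl3 (1.82), Ccl9 (0.84) and Cxcl2 (1.41) had higher log2 fold changes in C1q than in alveolar macrophage-like cells, with edgeR adjusted p of 0.00938, 0.0284 and 1.75e-05. All of these pairs hold the alveolar macrophage-like class, whose Spp1 clusters numbered 172 and 193 cells in the Het and 1, 16 and 28 in the KO libraries.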

How the results depend on the processing

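Of the 6 calls in the immune sums, leaving out the Spp1 clusters ended those of Ccl6, Ccl9 and Ccl12, and leaving out the C1q clusters ended those of Ccl2, Ccl7, Ccl12 and Ccl24; the causes were not tested. No level moved and no member changed the class in which it was highest under the other cell filters or resolutions. This check compared whole classes. The highest class for Cxcl2 was C1q macrophage-like, although the Spp1 clusters were higher as single clusters. Without the C1q clusters the log2 fold changes in the immune sums were -0.021 for Ccl2, -0.57 for Ccl3, -0.27 for Pf4, -0.03 for Nfkbid, -0.61 for Mrc1, -0.03 for Clec10a and -0.15 for Mgl2, with 685 genes and 3 members called. Without the Spp1 clusters they were 0.22 for Cxcl3, 0.94 for Cxcl1 and 0.53 for Il1a. In alveolar macrophage-like cells without those clusters Ccl6 was at 0.14, Ccl9 at 0.084 and Cxcl2 at 0.21 (424 genes, 0 members called). The Plet1 cluster alone gave Ccl3 0.043, Ccl4 0.57, Ccl6 0.10 and Cxcl2 0.22 (90 genes, 1 member), and the Lpl cluster alone Ccl6 0.17 and Ccl9 0.17 (216 genes, 0 members). Ccl4 in monocyte-like cells ranged from -0.637 to 0.313 without 1 library at a time.

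Counts of called genes and members changed by over 1.5 times as follows. Sex as a covariate gave 412 genes in the immune sums, 323 in alveolar macrophage-like, 15 in C1q macrophage-like (0 members), 0 in monocyte-like and 0 in neutrophil-like cells. DESeq2 gave 640 in alveolar macrophage-like, 34 in monocyte-like and 19 in neutrophil-like cells, and 2 members in C1q macrophage-like cells. No filter on low counts gave 240 in alveolar macrophage-like, 348 (2 members) in monocyte-like, 566 (4 members) in C1q macrophage-like and 143 (2 members) in neutrophil-like cells. A stricter filter gave 0 genes in monocyte-like cells and 0 members in C1q macrophage-like cells. The stricter cell filter gave 374 in alveolar macrophage-like, 136 in C1q macrophage-like, 20 in monocyte-like and 5 in neutrophil-like cells. Library size alone gave 3 in monocyte-like and 1 in neutrophil-like cells. With doublets kept there were 134 in C1q macrophage-like and 1 in neutrophil-like cells. With the members in the clustering there were 51 (0 members) and 7. Resolution 2 gave 0 in monocyte-like cells and resolution 0.5 gave 0 members in C1q macrophage-like cells. The main C1q cluster alone gave 133 genes and the shallow one 0 genes and 0 members, and the larger neutrophil-like cluster 11.

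Without 1 library at a time, 251 to 1392 genes and 4 to 7 members were called in the immune sums, 234 to 1018 and 4 to 5 in alveolar macrophage-like, 3 to 290 and 0 to 2 in C1q macrophage-like, 0 to 440 and 0 to 5 in monocyte-like, and 0 to 78 and 0 to 1 in neutrophil-like cells. The highest count of genes came without KO1 in every fit (1392, 1018, 290, 440 and 78), and counts under the main one by over 1.5 times came without Het1 (327), Het2 (251) or KO2 (673) in the immune sums, and without Het1 (363), Het2 (234) or KO2 (539) in alveolar macrophage-like cells. The differences between types made 3 to 12 calls of members. For alveolar macrophage-like minus monocyte-like cells 20 to 257 genes differed, with Ccl6 from -1.256 to -1.126 and Cxcl2 from -1.473 to -1.352, and for C1q minus alveolar macrophage-like cells 106 to 603 genes, with Ccl3 from 1.455 to 2.103, Ccl9 from 0.67 to 0.988 and Cxcl2 from 1.227 to 1.593. Whether same-numbered Het and KO libraries share more than a number is not given in the labels. The correlations of their deviations in the immune sums (0.07 and 0.05) cannot decide it, since the deviations of 2 Het libraries mirror each other. A replicate block gave 1227 genes and 6 members in the immune sums, 556 genes and 2 members in C1q macrophage-like cells and 64 genes in neutrophil-like cells. Of 981 values of members or list genes not called in either fit, 69 changed sign under an alternative.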

Other observations

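Outside the immune cells, mesenchymal cells held Ccl2 at 58.5 and 40.5 CPM in the Het and 77.5, 39.4 and 52.9 CPM in the KO libraries, and Ccl7 at 21.9 and 29.5 against 18.4, 9.95 and 14.1 CPM. The ranges of Ccl2 overlapped between genotypes, and those of Ccl7 did not, with no test of either. The share of all genes that separate in this way was not counted, so this is a description alone.

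Ackr2, a receptor that takes up inflammatory chemokines without signalling migration, had its highest level in endothelial cells (20.9 CPM). Ccrl2, an atypical receptor, was highest in neutrophil-like cells (410.3 CPM).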
